A study of Mus musculus with 6 samples.

Results

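Saliva is made when nerves release transmitters onto receptors of the gland's secretory cells, and the genes described here encode that machinery: secretagogue receptors, the calcium signalling they trigger, and the channels, pumps and transporters that move salt and water. The 42 members were given by name. Each matched 1 row by its symbol, so all 42 were found among the 24054 gene rows of the count table. The counts come from mRNA libraries of mouse salivary gland, in 3 control libraries and 3 libraries of K5-rtTA:TetO-RANKL mice (K5-RANKL below). In K5-RANKL mice the keratin 5 promoter drives rtTA, a doxycycline-dependent activator that switches on a TetO-RANKL transgene; RANKL is a TNF family cytokine, and keratin 5 marks basal and myoepithelial cells of the gland. Controls were monogenic, and which transgene they carried is not stated in the sources used here. Doxycycline was given to all animals, controls included, for 2 weeks through both food and drinking water, starting when the mice were 9 weeks old. Each library is RNA pooled from 5 mice. The labels do not tie the pools to separate litters or cages, so p-values measure the spread between these pools. Strain, sex and which of the salivary glands were taken are not given.

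As background, acetylcholine acting on muscarinic receptors and noradrenaline acting on alpha-1 receptors activate G proteins of the Gq family and phospholipase C beta, which makes the messenger IP3. IP3 opens its receptors on the endoplasmic reticulum, calcium leaves the store, and STIM sensors open ORAI channels to refill it. The calcium rise opens apical chloride and basolateral potassium channels. Chloride, loaded into the cell by the cotransporter NKCC1 on the gradient kept by the sodium pump, leaves into the lumen, and water follows through aquaporin 5. Beta-1 adrenergic and VIP receptors act through cyclic AMP and mainly drive protein release.

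Total counts ran from 13875951 to 17921815 in controls and from 14149734 to 16412579 in K5-RANKL libraries. The check of the labels is Tnfsf11, which encodes RANKL: it was at 3.78, 1.86 and 0.939 CPM in controls and at 702, 405 and 723 CPM in K5-RANKL libraries. CPM are counts scaled to a common library size after correction by trimmed mean of M values (TMM), which lines libraries up on the bulk of their genes. This choice matters here. Over the 14044 genes that could be tested, the middle log2 fold change (median) was 0.01 by TMM, and by library totals alone it was 1.01, because TMM factors were 0.677 to 0.735 in controls and 1.32 to 1.47 in K5-RANKL libraries. Directions below are on the TMM scale unless library totals are named.

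Marker genes of the tissue were checked first, and salivary acinar markers were abundant: 14 of 15 listed were in the table, all 14 were measured, and their summed level was 213600 to 265100 CPM in controls. In K5-RANKL libraries the same sum was 25420, 35480 and 26620 CPM. All 14 markers fell by both scalings, Bpifa2, the most abundant, by 6.24 on the log2 scale by TMM and by 5.26 by totals. In bulk RNA, fewer cells of a type and less RNA per cell cannot be told apart, for acinar markers and for the members alike. Of 17 duct markers, 12 fell and 4 rose (7 and 6 by totals), and their sum went from between 23010 and 24660 CPM to between 7766 and 9883 CPM. Leukocyte markers summed to 373 to 421 CPM in controls and 983 to 1060 CPM in K5-RANKL libraries (10 of 13 rose), and fibroblast markers to 595 to 796 and 2715 to 3169 CPM (7 of 8 rose). Endothelial markers went from sums of 201 to 225 CPM to 231 to 239 CPM (4 of 11 rose and 2 fell by TMM, and all 11 rose by totals). Nerve and Schwann cell markers summed to 103 to 113 and 53.7 to 59.8 CPM, mostly Sox10, a factor that salivary epithelium also makes. By TMM 1 of the 9 measured rose and 3 fell, and by totals 5 rose and 0 fell. Th was at 0 counts in all controls and at 2, 1 and 0 in K5-RANKL libraries, too few to test. Skeletal muscle markers summed to 9.92 to 98.0 CPM in controls and 126 to 205 CPM in K5-RANKL libraries; their groups did not overlap for all 7, but 0 of 7 passed by TMM and all 7 were higher by totals. Adipocyte markers (255 to 438 against 285 to 385 CPM) overlapped between groups, and 0 of 5 passed by TMM and 4 were higher by totals. The haemoglobin genes Hbb-bs, Hbb-bt, Hba-a1 and Hba-a2 were listed at 0 counts in every library. The part of these cell type markers in the changes of the members was not tested.

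Of the 42 members, 41 had enough counts to test and 33 passed an adjusted p under 0.05 (edgeR quasi-likelihood test), 80.5% of those tested, where 66.2% of all genes passed. Lower in K5-RANKL glands were 23 (56.1%, against 32.1% of all genes), and higher were 10 (24.4%, against 34.2% of all genes). The median log2 fold change of the 41 was −0.25, beside 0.01 over all genes. The groups did not overlap for 32 members (78%, against 70.4% of all genes). At 2-fold or more, 9 members were lower (22% of those tested; 9.01% of all genes) and 3 higher (7.32%; 16.9% of all genes). By library totals 29 members were higher and 8 lower, against 83.5% and 4.97% of all genes, with a median of 0.75 beside 1.01. The 10 higher members were higher by both scalings, as were 34.2% of all genes. Over all genes, the 4799 higher by TMM were all higher by totals, and the 698 lower by totals were all lower by TMM. A call by both scalings is therefore not separate evidence. The 8 lower by both, where 4.97% of all genes were, are Chrm3, Adrb1, Atp2a3, Aqp5, Slc12a2, Ano1, Kcnn4 and Atp1b1. Of the other 15 that were lower by TMM, 11 were called higher by library totals and 4 did not pass there. Among the 41, 35 passed the filter on low counts in each group on its own. Vipr2, Tacr1, Trpc1, Aqp3 and Aqp4 passed only through the K5-RANKL group, and Adra1b only with both groups together. Tacr1 and Aqp3 are among the 10 higher members and the 3 higher at 2-fold or more. Those counts thus rest in part on genes that were tested because of their K5-RANKL level.

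**Figure D1:**
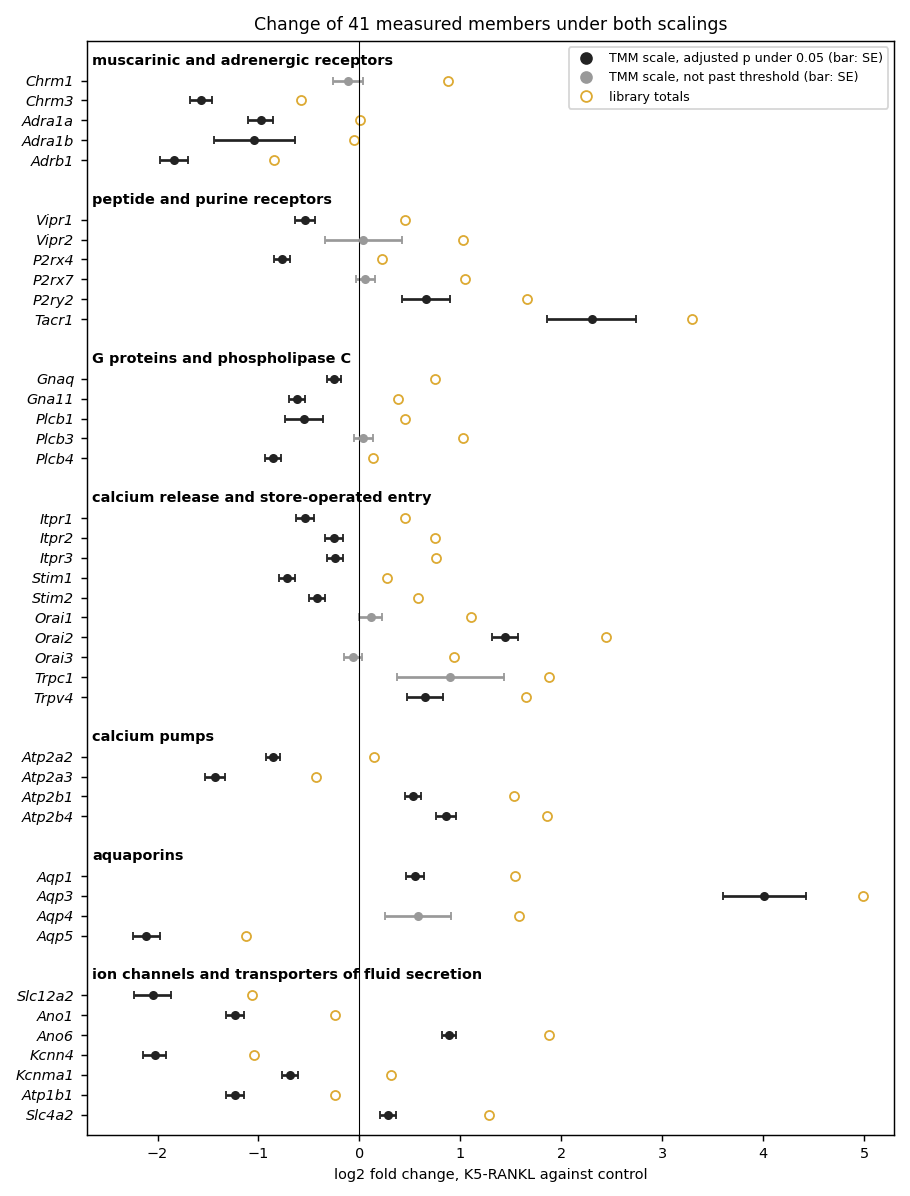
Log2 fold change of K5-RANKL against control (x axis) for the 41 measured members, ordered by role (y axis); filled points with SE bars are on the TMM scale, dark where the adjusted p is under 0.05 and grey where it is not, and open circles are by library totals. The 8 members lower by both scalings, Aqp5 (−2.11 and −1.12) and Slc12a2 (−2.05 and −1.06) among them, lie left of 0 with both symbols, whereas points such as Stim1 (−0.72 and 0.27) lie on both sides of it.

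Before the values, the stretches of DNA in front of 4 genes are shown, chosen because Aqp5, Kcnn4 and Ano1 fell by both scalings and Aqp3 had the highest log2 fold change of the members. Each is the 250 bases before a transcript start, 5′ to 3′ on the gene's strand, from RefSeq on GRCm38.p6, and capitals mark a match to one of the motifs searched.
Aqp5, chr15:99590778-99591027, plus strand: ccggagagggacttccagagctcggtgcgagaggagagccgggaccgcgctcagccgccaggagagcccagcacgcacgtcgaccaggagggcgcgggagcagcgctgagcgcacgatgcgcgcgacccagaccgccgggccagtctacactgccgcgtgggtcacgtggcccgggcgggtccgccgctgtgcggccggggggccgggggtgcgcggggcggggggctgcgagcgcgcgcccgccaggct
Kcnn4, chr7:24370013-24370262, plus strand: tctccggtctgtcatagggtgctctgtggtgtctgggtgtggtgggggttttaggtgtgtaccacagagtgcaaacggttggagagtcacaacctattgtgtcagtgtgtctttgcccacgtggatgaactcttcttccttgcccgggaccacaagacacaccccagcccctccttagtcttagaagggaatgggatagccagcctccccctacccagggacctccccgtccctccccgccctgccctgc
Ano1, chr7:144738574-144738823, minus strand: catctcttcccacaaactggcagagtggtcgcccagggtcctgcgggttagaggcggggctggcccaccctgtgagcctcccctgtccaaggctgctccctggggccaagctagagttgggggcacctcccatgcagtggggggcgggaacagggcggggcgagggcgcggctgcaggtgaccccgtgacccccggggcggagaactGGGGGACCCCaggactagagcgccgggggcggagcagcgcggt
Aqp3, chr4:41098184-41098433, minus strand: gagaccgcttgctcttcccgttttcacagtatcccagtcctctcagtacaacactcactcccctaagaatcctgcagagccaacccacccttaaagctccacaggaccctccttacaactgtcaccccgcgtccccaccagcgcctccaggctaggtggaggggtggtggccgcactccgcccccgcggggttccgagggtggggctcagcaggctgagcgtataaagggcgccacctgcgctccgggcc

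The capitals in the Ano1 window are a match to the NF-kB motif. RefSeq windows of 300 bases (250 before and 50 after a start) were found for 36 of the 42 members, 42 windows in all, and were searched on both strands for motifs that can overlap one another. The NF-kB motif was in 4.76% of the members' windows and in 4.51% of all 32851 windows. The AP-1 motif (TGAGTCA or TGACTCA) was in 7.14% and 5.2%, the short NFAT core (GGAAA) in 42.9% and 61.3%, and the E-box (CATATG or CAGCTG) in 9.52% and 19.8%. Bases were unevenly made up: the median GC content was 69.7% in the members' windows and 52.7% in all windows, and the motif shares are not corrected for it. A match is a run of letters and not a site, and its absence says nothing of a factor.

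Among the receptors for acetylcholine and noradrenaline, Chrm3 and Adrb1 fell by both scalings. Chrm3 encodes the M3 muscarinic receptor, the main receptor for acetylcholine in salivary acinar cells (Entrez 12671, chromosome 13 from 9875486 to 10361062). It stood at 26.9, 31.5 and 32.0 CPM in controls and at 9.59, 11.4 and 9.46 CPM in K5-RANKL libraries. Every control was above every K5-RANKL library, by more than the spread within groups. The log2 fold change of Chrm3 was −1.57 (SE 0.11, edgeR adjusted p = 6.54e-10), and −0.58 by library totals. Chrm1, the M1 receptor gene, stood at 6.82, 5.89 and 7.59 CPM and at 6.39, 6.96 and 5.54 CPM, with overlapping groups, and did not pass (−0.11, SE 0.15, edgeR adjusted p = 0.521), while by library totals it was higher (0.88).

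The alpha-1A receptor gene Adra1a stood at 24.3, 30.7 and 30.8 CPM in controls and 12.6, 17.0 and 14.1 CPM in K5-RANKL libraries. Its groups lay apart and it fell by 0.98 (SE 0.12, edgeR adjusted p = 2.21e-06), but by library totals the difference was 0.01. Adra1b, the alpha-1B receptor gene, had few counts and overlapping groups (0.553, 1.08 and 1.49 against 0.623, 0.321 and 0.559 CPM). Its log2 fold change was −1.04 (SE 0.40, edgeR adjusted p = 0.0303). The call was lost by library totals (−0.05), with DESeq2 or voom, and on leaving out control 2 (−1.03), control 3 (−0.66), K5-RANKL 2 (−0.83) or K5-RANKL 3 (−1.11), and its adjusted p ran from 0.00862 to 0.913 over the alternatives.

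Adrb1 encodes the beta-1 receptor through which noradrenaline drives protein release from rodent acinar cells (Entrez 11554, chromosome 19 from 56722117 to 56725150). It stood at 43.0, 36.7 and 36.1 CPM in controls and 8.18, 12.8 and 11.5 CPM in K5-RANKL libraries. This was the largest fall among the 11 receptor genes that were members, at −1.84 (SE 0.14, edgeR adjusted p = 1.45e-07), and −0.85 by library totals. Of the 5 muscarinic and adrenergic members, 4 fell and 0 rose, where 32.1% of all genes fell and 34.2% rose. Chrm1 did not pass, and their median was −1.04. By library totals 2 fell, Chrm1 rose and 2 did not pass, where 4.97% of all genes fell and 83.5% rose.

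Peptide and purine receptors went both ways. Tacr1, encoding the NK1 receptor for substance P, a peptide that stimulates salivation, had 4, 2 and 6 counts in controls and 48, 18 and 49 in K5-RANKL libraries (0.369, 0.196 and 0.469 against 1.99, 0.963 and 2.28 CPM). All K5-RANKL libraries were above all controls, K5-RANKL 2 the least. It rose by 2.30 (SE 0.44, edgeR adjusted p = 0.000211). Like Aqp3 below, Tacr1 passed the filter on low counts only through the K5-RANKL group, so its place among the tested members rests on its level there. P2ry2, a G protein-coupled receptor for ATP and UTP, stood at 2.21, 1.77 and 1.88 CPM and at 2.62, 2.67 and 3.96 CPM; it rose by 0.66 (SE 0.24, edgeR adjusted p = 0.0232). That call was lost with DESeq2 and without control 2, control 3 or K5-RANKL 3 (0.44 without the last), the adjusted p running from 9.54e-07 to 0.153.

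P2rx4, an ATP-gated cation channel gene, was the most abundant of the members' receptor genes per kb of annotated exons. It stood at 21.9 CPM per kb in controls and 12.8 in K5-RANKL glands. Its libraries held 159, 153 and 149 CPM against 83.1, 98.7 and 88.1 CPM. The groups lay apart and P2rx4 fell by 0.77 (SE 0.08, edgeR adjusted p = 1.27e-07), whereas by library totals it was higher by 0.22. P2rx7, a second ATP-gated channel gene of acinar and immune cells, did not pass by TMM (0.06, SE 0.09, edgeR adjusted p = 0.583) and was higher by totals (1.05). Vipr1, a receptor gene for vasoactive intestinal peptide, fell by 0.54 (SE 0.10) by TMM from 27.7, 25.2 and 22.7 CPM to 16.1, 18.4 and 17.3 CPM, and was higher by 0.45 by totals. Vipr2, at under 1 CPM in all 6 libraries, did not pass by TMM (0.04, SE 0.38) and was higher by totals (1.03, edgeR adjusted p = 0.0151).

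Of the 5 G protein and phospholipase C members 4 fell and 0 rose by TMM, where 32.1% of all genes fell and 34.2% rose. By totals 4 rose and 1 did not pass, where 83.5% of all genes rose. Gna11 and Gnaq, which encode the Gq family alpha subunits, fell by 0.62 (SE 0.08) and 0.25 (SE 0.07) by TMM and were higher by 0.38 and 0.75 by library totals. Gna11 stood at 59.5, 59.0 and 67.0 CPM and at 42.2, 39.9 and 38.8 CPM. Gnaq went from 70.0, 78.6 and 78.3 CPM to 63.3, 64.9 and 63.3 CPM, a small shift with no overlap. Plcb4 was the most abundant of the 3 phospholipase C beta genes per kb (18.1 CPM per kb in controls, against 3.56 for Plcb3 and 0.429 for Plcb1), and stood at 148, 169 and 169 CPM against 84.4, 97.8 and 85.4 CPM. It fell by 0.86 (SE 0.08, edgeR adjusted p = 5.61e-08), and by totals did not pass (0.13). Plcb3 did not pass by TMM (0.04, SE 0.09), and Plcb1 fell by 0.55 (SE 0.19), a call lost without control 1 (−0.49) or control 2 (−0.46) at adjusted p between 0.00491 and 0.0743 over its alternatives; both were higher by totals, by 1.03 and 0.45.

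The 3 IP3 receptor genes, which encode the calcium release channels of the endoplasmic reticulum, were all slightly lower by TMM and higher by totals. Itpr1 stood at 73.4, 90.8 and 92.0 CPM against 54.9, 60.9 and 60.5 CPM (−0.54, SE 0.09, edgeR adjusted p = 3.7e-05; 0.45 by totals). Itpr2 and Itpr3 stood at −0.25 (SE 0.09) and −0.24 (SE 0.08), and at 0.75 and 0.76 by totals. The edges of their groups nearly met: the lowest control held 81.5 CPM of Itpr2 and 61.11 CPM of Itpr3, and the highest K5-RANKL library 81.1 and 61.09 CPM. The call of Itpr2 was lost without control 3 (−0.15) or K5-RANKL 1 (−0.21), with adjusted p between 3.47e-07 and 0.132 over the alternatives, and that of Itpr3 without control 2 (−0.18), control 3 (−0.23) or K5-RANKL 2 (−0.19), between 9.32e-07 and 0.0971.

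In store-operated entry, Orai2 was the ORAI gene that passed by TMM, while all 3 rose by totals. Orai2, one of 3 genes for the pore of the store-operated channel (Entrez 269717, chromosome 5 from 136147456 to 136170697), stood at 5.62, 7.26 and 7.12 CPM in controls and 20.8, 16.4 and 17.0 CPM in K5-RANKL libraries. It rose by 1.44 (SE 0.13, edgeR adjusted p = 4.38e-08), and by 2.44 by totals. Orai1 (10.7 ± 0.49 and 11.5 ± 0.591 CPM; SD, n = 3 each) and Orai3 (23.6 ± 2.03 and 22.8 ± 1.67 CPM) had overlapping groups and did not pass by TMM (0.11 and −0.06; edgeR adjusted p = 0.378 and 0.609), and were higher by totals (1.11 and 0.94). The store sensors Stim1 and Stim2 fell by 0.72 (SE 0.08) and 0.42 (SE 0.08) by TMM and were higher by 0.27 and 0.58 by totals. Stim1 stood at 72.6, 79.8 and 82.9 CPM against 46.4, 50.1 and 46.4 CPM.

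Trpv4, a cation channel gated by osmotic and mechanical stimuli, rose by 0.65 (SE 0.18, edgeR adjusted p = 0.00504) from 4.98, 3.63 and 3.91 CPM to 5.85, 5.72 and 8.06 CPM. Trpc1, a channel linked to store-operated entry, had 8, 3 and 1 counts in controls and 14, 10 and 19 in K5-RANKL libraries, and did not pass (0.90, SE 0.53, edgeR adjusted p = 0.148). It was called by totals (1.88), with quality weights in voom (1.43) and without control 1 (1.89), its adjusted p running from 0.0012 to 0.576. Over the 10 members of release and store-operated entry, 5 fell, 2 rose and 3 missed the threshold, where 32.1% of all genes fell and 34.2% rose. Their median was −0.15. By totals all 10 rose, as did 83.5% of all genes.

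Among the 4 calcium pump members, the 2 store pump genes fell and the 2 plasma membrane pump genes rose by TMM. Over all genes 32.1% fell and 34.2% rose. By totals 1 fell, 2 rose and 1 did not pass, where 4.97% of all genes fell and 83.5% rose. Atp2a3, encoding the store pump SERCA3 (Entrez 53313, chromosome 11 from 72961169 to 72993043), stood at 1894, 1817 and 1953 CPM in controls and 680, 771 and 655 CPM in K5-RANKL libraries. It fell by 1.43 (SE 0.10, edgeR adjusted p = 6.63e-10) and by 0.43 by totals. Atp2a2, encoding the widely expressed SERCA2, stood at 352.5, 351.6 and 373.4 CPM against 188, 198 and 208 CPM, and fell by 0.86 (SE 0.07); by totals it did not pass (0.14). The plasma membrane pump genes Atp2b1 and Atp2b4, whose products export calcium, rose by 0.53 (SE 0.08) and 0.86 (SE 0.10), and by 1.53 and 1.86 by totals. Atp2b1 stood at 56.6, 63.5 and 59.0 CPM against 80.7, 85.7 and 92.5 CPM, and Atp2b4 at 11.8, 11 and 12.7 CPM against 20.5, 22.6 and 21.6 CPM.

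The aquaporins held the largest fall among the 41 members, of Aqp5, and the largest rise, of Aqp3. Aqp3 passed the filter on low counts only through the K5-RANKL group, so its place among the tested members rests on its level there. Aqp5 encodes the apical water channel of acinar cells (Entrez 11830, chromosome 15 from 99591028 to 99594829; its upstream bases are printed above). It stood at 519, 449.8 and 485 CPM in controls and 99.95, 139.5 and 98.3 CPM in K5-RANKL libraries, far apart. Aqp5 fell by 2.11 (SE 0.13, 4.31-fold, edgeR adjusted p = 7.36e-08), and by 1.12 by totals. Aqp3, an aquaglyceroporin of basolateral membranes that also lets glycerol through, had 3, 2 and 1 counts in controls and 79, 43 and 71 in K5-RANKL libraries (0.276, 0.196 and 0.0782 against 3.28, 2.30 and 3.31 CPM). It rose by 4.01 (SE 0.41, edgeR adjusted p = 1.33e-07), and between 3.61 and 4.99 over the alternatives. Aqp1, a water channel of blood vessels and red cells, stood at 41.8, 34.9 and 41.7 CPM against 58.4, 61.0 and 53.7 CPM and rose by 0.55 (SE 0.09, edgeR adjusted p = 2.57e-05). Beside Aqp1, the endothelial marker Pecam1, the most abundant of its list, rose by 0.37 (SE 0.08) and was higher by totals (1.37). The 11 endothelial markers did not move together by TMM: 4 rose, 2 fell and 5 did not pass. By totals all 11 were higher, as were 83.5% of all genes. Their part in the value of Aqp1 was not tested. Aqp4, best known from astrocytes, had overlapping groups (1.48, 1.28 and 0.704 against 2.16, 1.07 and 1.77 CPM) and did not pass (0.58, SE 0.33, edgeR adjusted p = 0.134); it passed by totals (1.58) and without K5-RANKL 2 (0.80), the adjusted p running from 0.000121 to 0.495. Aqp8 had 1 count in all, in control 3, and was not tested; 3 counts would have been 0.235 to 0.295 CPM in controls and 0.125 to 0.161 CPM in K5-RANKL libraries.

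**Figure D2:**
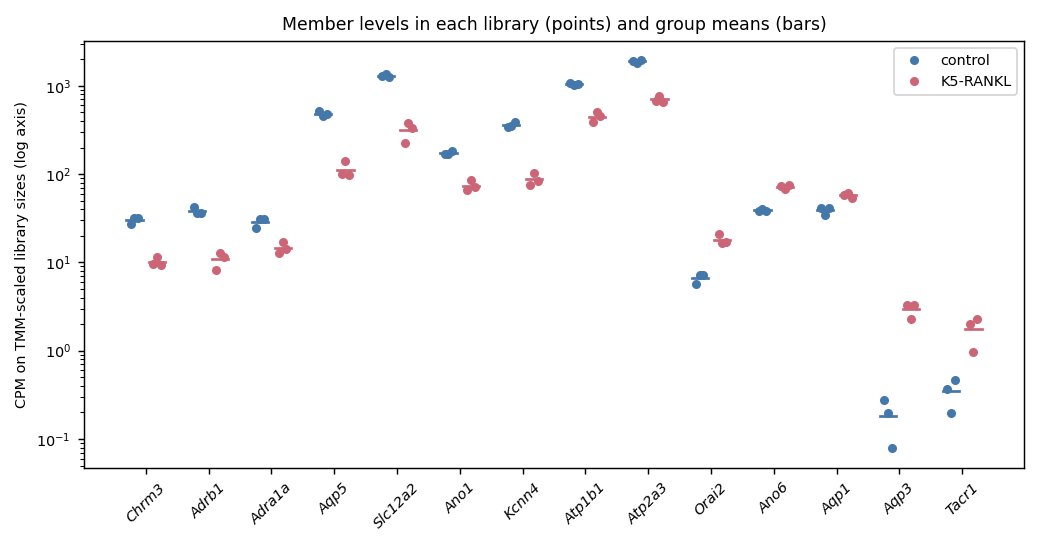
Level of 14 members (y axis, TMM-scaled CPM, log scale) by gene (x axis); each point is 1 of the 3 control or 3 K5-RANKL libraries, and each bar a group's mean. No group shown overlaps the other; Aqp5 sits at 449.8 to 519 CPM in controls and 98.3 to 139.5 CPM in K5-RANKL libraries, and by library totals the Adra1a groups differ by 0.01 on the log2 scale.

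Of the 7 ion channel and transporter members 5 fell and 2, Ano6 and Slc4a2, rose by TMM, where 32.1% of all genes fell and 34.2% rose. By totals 4 fell and 3 rose, where 4.97% of all genes fell and 83.5% rose. Slc12a2, encoding the sodium, potassium and chloride cotransporter NKCC1 (Entrez 20496, chromosome 18 from 57878512 to 57946821), stood at 1303, 1348 and 1246 CPM in controls and 224, 383 and 335 CPM in K5-RANKL libraries. Controls lay within a narrow range and K5-RANKL libraries were spread, all far below them. Slc12a2 fell by 2.05 (SE 0.18, edgeR adjusted p = 8.58e-06) and by 1.06 by totals. Ano1, encoding the calcium-activated chloride channel TMEM16A of the apical membrane (Entrez 101772, chromosome 7 from 144588549 to 144752026), stood at 168, 169 and 182 CPM against 65.8, 84.7 and 71.3 CPM, and fell by 1.23 (SE 0.09, edgeR adjusted p = 2.06e-09) and by 0.24 by totals. Its relative Ano6, encoding TMEM16F, a calcium-activated lipid scramblase and channel, went the other way: 38.6, 40.3 and 38.3 CPM against 73.1, 68.3 and 74.9 CPM, a rise of 0.89 (SE 0.07, edgeR adjusted p = 1.41e-08).

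Kcnn4, encoding the intermediate-conductance potassium channel that keeps the acinar membrane potential during secretion (Entrez 16534, chromosome 7 from 24369826 to 24385212), stood at 337, 347 and 386 CPM against 75.9, 103.8 and 82.8 CPM. It fell by 2.03 (SE 0.11, edgeR adjusted p = 5.41e-10) and by 1.04 by totals. Kcnma1, encoding the large-conductance potassium channel, fell by 0.69 (SE 0.08) from 68.1, 71.9 and 71.1 CPM to 39.7, 44.8 and 46.5 CPM, and was higher by 0.31 by totals. Atp1b1, the beta-1 subunit gene of the sodium pump, stood at 1074, 1030 and 1053 CPM against 393, 500.5 and 453 CPM and fell by 1.23 (SE 0.09, edgeR adjusted p = 3.89e-09) and by 0.24 by totals. Slc4a2, the chloride and bicarbonate exchanger gene AE2, rose by 0.28 (SE 0.08, edgeR adjusted p = 0.0051) from 28.9, 32.4 and 33.1 CPM to 38.9, 37.8 and 38.2 CPM. In the GENCODE annotation 18.7% of Atp1b1 exon bases overlap Nme7 and 13.7% of Slc4a2 exon bases overlap Fastk, both on the other strand, so without a stated strand setting of the counting these 2 values are less certain.

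Libraries within each group were not alike. Over the 23 members called lower, the median log2 difference of K5-RANKL 2 from the mean of the other K5-RANKL libraries was 0.14, with 19 above that mean, and that of K5-RANKL 1 was −0.14, with 20 below. Among controls the same median was 0.08 for control 3, with 17 above, and −0.07 for control 1, with 15 below. Chrm3, Adrb1, Aqp5, Slc12a2, Ano1, Kcnn4, Atp1b1 and Atp2a3 were each highest in K5-RANKL 2 among the libraries of its group. This library also had the highest summed acinar markers of its group (35480 CPM) and the lowest Tnfsf11 (405 CPM). The part of either in these values was not tested, and without K5-RANKL 2 the members were called 11 higher and 21 lower.

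Levels of different genes can be compared roughly per kb of annotated exons. The lengths join all annotated exons of a gene and not those of the transcripts expressed, so orders and shares per kb are approximate. On this measure the most abundant members in controls were Atp2a3 (358 CPM per kb), Atp1b1 (341), Aqp5 (186), Slc12a2 (119) and Kcnn4 (69.7). In K5-RANKL glands Atp1b1 (146 CPM per kb) and Atp2a3 (133) led, followed by Aqp5 (43.3), Atp2a2 (32.5), Slc12a2 (28.8) and Aqp1 (22). At the other end, Trpc1 was the lowest of the tested members in both groups (0.0461 and 0.0831 CPM per kb).

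A ratio of 2 genes in 1 library does not depend on how libraries are scaled, so 24 such ratios were compared. With 3 libraries against 3, the two-sided exact permutation test cannot give a p under 0.1, and adjusted over the 24 ratios the smallest value is 0.133. The groups did not overlap for 18 of the 24, each with exact permutation p = 0.1 and adjusted p = 0.133; single genes did so in 70.4% of all cases. The 18 ratios share genes and libraries and are not independent.

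Among water channels, counts of Aqp1 relative to Aqp5 were 0.0806, 0.0776 and 0.0861 in controls and 0.584, 0.437 and 0.547 in K5-RANKL libraries, a 6.38-fold higher ratio. Per kb, Aqp5 made up 92.5, 92.7 and 92.1% of the counts of the 5 aquaporin members in controls and 61.2, 68.5 and 62.6% in K5-RANKL libraries, and Aqp1 made up 7.36, 7.11 and 7.83% and 35.4, 29.6 and 33.9%. Aqp3 relative to Aqp5 was 61.0-fold higher, resting on 6 control counts of Aqp3.

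Among the chloride and potassium channels, Ano6 counts relative to Ano1 went from 0.23, 0.239 and 0.21 to 1.11, 0.807 and 1.05, so that the 2 genes had nearly equal counts in K5-RANKL libraries. Ano1 made up 89.7% ± 0.597 of the counts per kb of this pair in controls, against 66.6% ± 3.74 in the K5-RANKL group (SD, n = 3 for both). Kcnma1 relative to Kcnn4 went from 0.202, 0.208 and 0.185 to 0.524, 0.432 and 0.561, and Kcnn4 made up 94.4% ± 0.321 and 86.8% ± 1.52 of the pair per kb.

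Within calcium signalling, Orai2 relative to Orai3 went from 0.243, 0.335 and 0.277 to 0.859, 0.706 and 0.813. Orai2 held 6.56% ± 1.01 of the ORAI counts per kb in controls against 15.9% ± 1.6 in the K5-RANKL group, and Orai3 stayed the most abundant of the 3 (65.7% ± 1.39 and 57% ± 1.16). Atp2a3 relative to Atp2a2 fell from between 5.17 and 5.37 to between 3.15 and 3.9 in counts. Plcb4 relative to Plcb3 went from between 6.42 and 6.63 to between 3.2 and 3.96, and Chrm3 relative to Chrm1 from between 3.93 and 5.31 to between 1.5 and 1.7.

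The groups overlapped for 6 of the 24 ratios. With this design that does not show that a ratio was unchanged. Slc12a2 relative to Aqp5 was 2.51, 3 and 2.57 in controls and 2.24, 2.74 and 3.41 in K5-RANKL libraries, a log2 difference of 0.04 between overlapping groups (exact permutation p = 0.9). Itpr2 relative to Itpr3 differed by −0.01 (exact permutation p = 0.9), and Orai1 relative to Orai3 by 0.17 (exact permutation p = 0.3). Not all genes that fell did so by the same amount: Ano1 relative to Aqp5 was 1.85-fold higher, and Chrm3 relative to Aqp5 1.47-fold higher, with no overlap in either, and Slc12a2 relative to Atp1b1 was 1.8-fold lower (1.21, 1.31 and 1.18 against 0.571, 0.764 and 0.741).

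**Figure D3:**
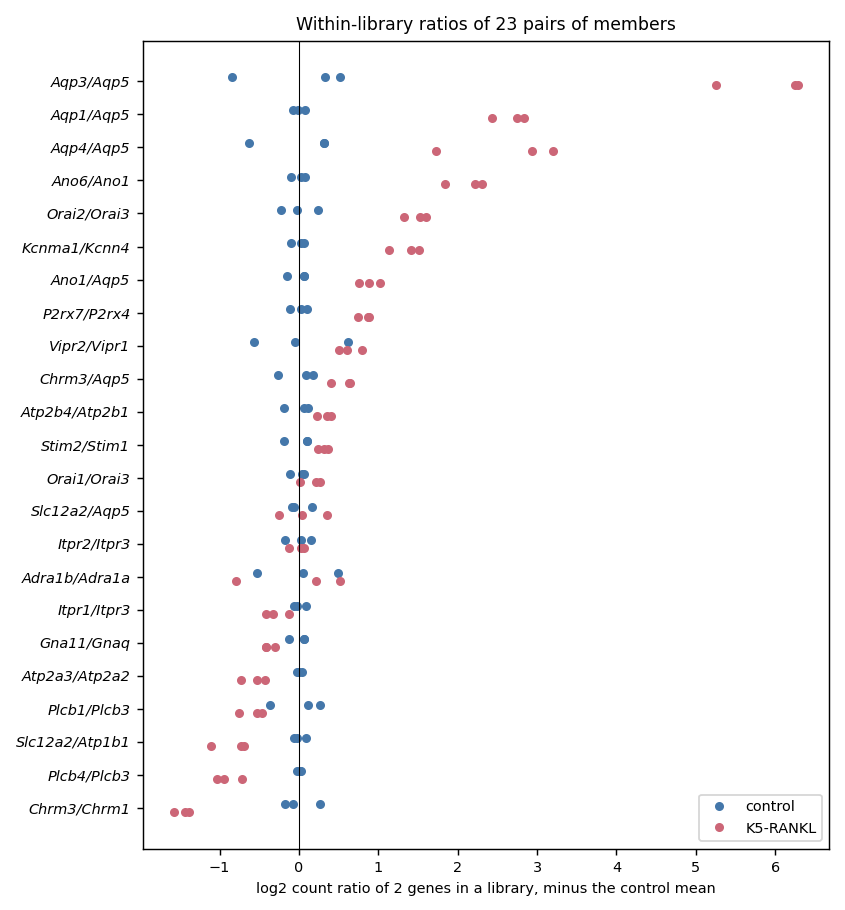
Log2 ratio of the counts of 2 members within a library (x axis), set to the control mean of each pair, for 23 pairs (y axis); blue points are 3 control and red points 3 K5-RANKL libraries. Aqp1/Aqp5 and Ano6/Ano1 lie to the right in all 3 K5-RANKL libraries (mean differences 2.67 and 2.12), and Slc12a2/Aqp5 (0.04) and Itpr2/Itpr3 (−0.01) overlap; ratios do not change with the scaling of libraries.

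**Figure D4:**
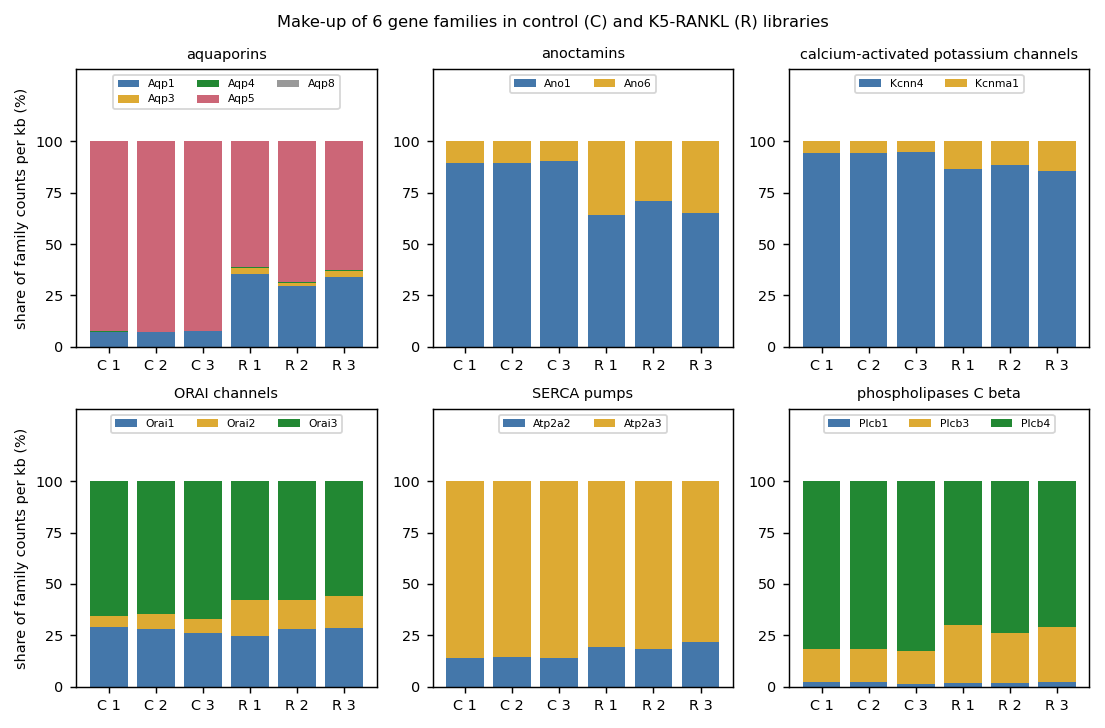
Share of each gene in its family's counts per kb of exon (percent, y axis) in control (C) and K5-RANKL (R) libraries, 1 bar per library. Aqp5 fills 92.1 to 92.7% of the aquaporin bars in controls and 61.2 to 68.5% in K5-RANKL libraries, Aqp1 most of the rest, and Orai2 goes from 6.56% to 15.9% of the ORAI bars on average.

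Other genes of the pathway, from lists of relatives and partners, were called higher and lower in similar numbers by TMM. Of 207 listed genes 199 were in the table and 156 were measured: 59 rose, 60 fell and 37 missed the threshold. Their median was 0.01, as over all genes. By library totals 113 rose and 17 fell. Beside these counts and those of the lists below, 34.2% of all genes rose and 32.1% fell by TMM. By totals 83.5% of all genes rose and 4.97% fell. The share lower, 38.5%, compares with 56.1% of the members and 32.1% of all genes.

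Of 26 other secretagogue receptor genes 16 rose and 7 fell by TMM (61.5% and 26.9%, against 34.2% and 32.1% of all genes), with a median of 0.85. By totals 20 rose and 2 fell, where 83.5% of all genes rose and 4.97% fell. P2ry6, a receptor for UDP, rose by 2.65 (SE 0.13) from 3.33 ± 0.589 to 21.1 ± 0.938 CPM (SD, n = 3 each), and Adora2b, an adenosine receptor gene, by 3.60 (SE 0.42), from 6 counts over the controls. Adora1, which encodes another adenosine receptor, went from 28.9 ± 0.76 to 8.36 ± 1.66 CPM and fell by 1.80 (SE 0.12). Tacr3, encoding the neurokinin 3 receptor, had 34, 17 and 26 counts in controls and 2, 0 and 0 in K5-RANKL libraries. The ratio was 73.2 (95% exact counting interval 19.6 to 615), opposite in direction to Tacr1. With these counts Tacr3 passed the filter on low counts only through the controls, and Adora2b and Tacr1 only through the K5-RANKL group. The places of these genes among those tested rest on their levels there. Of 32 other G protein, cyclase and regulator genes 16 rose and 11 fell by TMM (median 0.25), and by totals 27 rose and 2 fell. Gnai2, an inhibitory G protein gene, and Adcy7, an adenylyl cyclase gene, rose by 1.45 (SE 0.08) and 1.69 (SE 0.09). The cyclase genes Adcy6 and Adcy9 fell by 1.19 (SE 0.07) and 1.04 (SE 0.09), the call of Adcy9 being lost by totals (−0.05). The leukocyte markers given above moved in the same direction as P2ry6, Gnai2 and Adcy7, and their part in these values was not tested.

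Of 17 other phospholipase and IP3 genes 5 rose and 5 fell by TMM (median −0.04), and by totals 14 rose and 0 fell. Plcb2, a phospholipase C gene abundant in blood cells, rose by 1.55 (SE 0.14) and Plcg2 by 0.47 (SE 0.09). Itpkb, an IP3 kinase gene, and Ahcyl1, whose product IRBIT binds IP3 receptors, fell by 0.84 (SE 0.08) and 0.39 (SE 0.07) by TMM and stood at 0.15 and 0.60 by totals. Of 24 other calcium channel, pump and sensor genes 7 rose and 12 fell by TMM (median −0.21), and by totals 17 rose and 2 fell (median 0.79). The sodium and calcium exchanger gene Slc8a1 went from 3.25 ± 0.0315 to 17.3 ± 1.53 CPM and rose by 2.41 (SE 0.14), and the calmodulin gene Calm3 by 0.68 (SE 0.08). Tpcn1, an endolysosomal channel gene, fell by 1.19 (SE 0.08), and Tmem66, which encodes SARAF, a brake on store-operated entry, by 0.93 (SE 0.08); by totals Tmem66 did not pass (0.07).

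Of 21 other chloride and potassium channel genes 5 rose and 10 fell by TMM (median −0.29), and by totals 13 rose and 4 fell (median 0.70). Kcne1 and Kcnk1, encoding a potassium channel subunit and a two-pore-domain potassium channel, fell by 2.15 (SE 0.14) and 1.39 (SE 0.08), and Lrrc8c, a subunit gene of the volume-regulated anion channel, and Ano10 rose by 1.16 (SE 0.13) and 0.65 (SE 0.09). Of 35 other sodium pump, cotransporter, exchanger and regulator genes 10 rose and 15 fell by TMM (median 0.01), 13 of the 15 at least 2-fold, and by totals 21 rose and 7 fell. Slc12a8, of the same family as Slc12a2, fell by 2.29 (SE 0.10) from 186 ± 9.64 to 38.0 ± 5.86 CPM, and Fxyd2, a regulator of the sodium pump, by 1.34 (SE 0.08). Slc12a4, the potassium and chloride cotransporter gene KCC1, and Fxyd5 rose by 1.31 (SE 0.12) and 1.77 (SE 0.10). By totals the calls of Slc12a8, Fxyd2, Kcne1, Kcnk1 and Tpcn1 kept their direction. The single other aquaporin gene with enough counts did not pass by TMM (0.01) and was higher by totals (1.01).

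**Figure D5:**
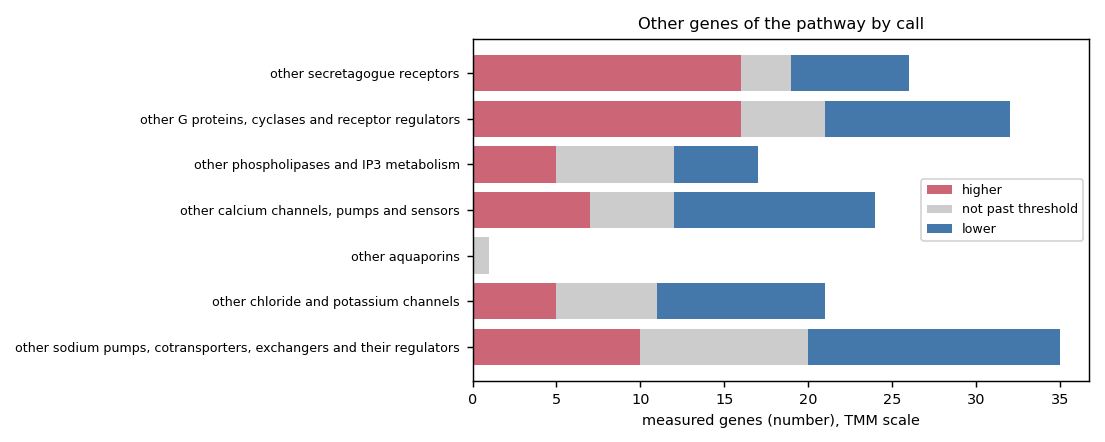
Number of measured genes (x axis) in 7 lists of other pathway genes (y axis) that were higher, lower or not past the threshold in K5-RANKL glands on the TMM scale. Of 26 receptor genes 16 were higher, and of 21 chloride and potassium channel genes 10 were lower by TMM, but 13 higher and 4 lower by library totals; by totals 113 of all 156 genes were higher and 17 lower. Over all genes tested 34.2% were higher and 32.1% lower by TMM, and 83.5% and 4.97% by totals.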

How the data were processed

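The authors deposited raw read counts per gene, whole numbers whose library totals differ. The submitters' processing notes name STAR and mm10; for the counting tool, annotation, strand setting and versions the sources used here give nothing. RNA (250 ng) was made into strand-specific libraries, per the labels' protocols. Positions are RefSeq's on GRCm38.p6, by Entrez identifier (23495 of 23571 matched), and exon lengths and overlaps are from GENCODE. Groups come from the genotype label; replicate numbers follow accession order and pair nothing. Library pairs within a group differed by a chi-square of 6.26 to 38.3 per gene (over genes reaching 20 counts across both libraries), above the value near 1 of repeat counting, so none was a duplicate.

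Genes passing edgeR's filterByExpr (minimum count 10) entered, after TMM scaling, edgeR's quasi-likelihood test with robust estimation, two-sided, over all 6 libraries with no covariate. Benjamini-Hochberg adjustment ran over all 14044 genes, with a threshold of 0.05. Each SE is the absolute log2 fold change over the root of F. Ratios used counts plus 0.5 and an exact permutation test, and the standing of libraries log2(CPM + 0.1). R 4.3.3, edgeR 4.0.16, limma 3.58.1, DESeq2 1.42.0 and scipy 1.17.1 were used. The edgeR test was checked on simulated counts with few genes changed, which does not cover the difference in TMM factors between these groups. The permutation test was checked on a constructed case of separate groups. The interval and the values of 3 counts cover counting error only.

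The members, lists, motifs and alternatives were chosen with earlier results of these data known. All members are named. Of each list of other genes, up to 2 called genes per direction with the smallest adjusted p and at least 1 CPM in the higher group are named; of each marker list, the most abundant gene or those at 0 are named where they bear on a member, and other markers only by count. Of the listed genes, 8 pathway genes and the markers Mucl2 and Adgre1 matched no symbol and were not analysed here. The most abundant markers of the lists not named in the report were Krt5, Alas2, Pdgfrb, Col3a1, Myh4, Fabp4 and Laptm5. Of 11 basal and myoepithelial markers 6 rose and 4 fell (9 and 0 by totals); of 7 pericyte markers 4 rose and 1 fell (6 and 0 by totals); the erythroid list had 1 measured gene, which did not pass.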

Additional observations from a re-analysis of the deposited data

How the results depend on the processing

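RLE and upper-quartile factors, TMM without the 20 most abundant genes and edgeR without robust estimation left all 41 members on the same side of the threshold; DESeq2 and voom lost 2 and 1 calls, and quality weights gained 1. With no filter all 41 kept their side, and with at least 50 counts in 3 libraries 35 members were tested, all 35 on the same side, with a median of −0.53. Library totals changed most: 29 members were higher, 8 lower and 19 called at 2-fold or more, the median was 0.75, and of the other pathway genes 113 were higher and 17 lower. By totals the direction turned for 16 members: Chrm1 (0.88), Adra1a (0.01), Vipr1 (0.45), P2rx4 (0.22), Gnaq (0.75), Gna11 (0.38), Plcb1 (0.45), Plcb4 (0.13), Itpr1 (0.45), Itpr2 (0.75), Itpr3 (0.76), Stim1 (0.27), Stim2 (0.58), Orai3 (0.94), Atp2a2 (0.14) and Kcnma1 (0.31), and for Itpkb (0.15), Ahcyl1 (0.60) and Tmem66 (0.07). The shift follows from the TMM factors, which differ between the groups. Leaving out each library in turn gave 29 to 33 members called, 9 to 11 higher, 20 to 22 lower, 11 to 14 at 2-fold or more, a median of −0.31 to −0.23, and 53 to 60 higher and 56 to 60 lower other genes. It turned only values near 0 that had not passed: the log2 fold change of Vipr2 without control 2 (−0.19) or K5-RANKL 1 (−0.003; range −0.19 to 0.35, and 1.03 by totals), Plcb3 without control 1 (−0.03), and the log2 fold change of Orai3 without control 3 (0.01) or K5-RANKL 3 (0.004). Of the ratios, Adra1b/Adra1a (0.01, 0.22 and 0.37 without control 2, control 3 or K5-RANKL 2; range −0.29 to 0.37), Itpr2/Itpr3 (0.01, 0.07 and 0.05 without control 1, control 3 or K5-RANKL 1; range −0.10 to 0.07) and Slc12a2/Aqp5 (−0.01 and −0.11 without control 1 or K5-RANKL 3; range −0.11 to 0.19) turned; Aqp8/Aqp5 turned as a ratio of group sums (−0.38), since Aqp8 had 1 count. No paired analysis was possible because the labels give no replicate numbers that groups share. At this depth changes of Aqp8, Vipr2, Trpc1, Adra1b and Aqp4, each with few counts, are poorly resolved.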
